A study of Homo sapiens with 24 samples.

Results

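LINC genes are long intergenic noncoding RNA genes that carry a placeholder name made of the letters LINC and a number. The genes described here are those of the deposited annotation whose name is LINC followed by digits alone and whose counts, summed over all 24 libraries, came to at least 500. Of 553 such names among 57820 annotated genes, 147 reached that minimum, out of 18510 genes of any name that did. The members were thus chosen by their summed counts, so their levels are given as a description and not tested. Just outside the minimum lay LINC00861 with 453 counts, LINC00535 with 458 and LINC00882 with 468. Just inside it lay LINC00618 with 547 counts, LINC00494 with 548 and LINC00243 with 552. For 11 members the sum would have fallen under the minimum without the counts of their highest group, and these members could not have been chosen without being high in at least 1 group. They were LINC00243, LINC00494, LINC00604 and LINC00685 (highest in treated U2OS WT cells), LINC00624 (treated U2OS KO), LINC00473 and LINC01059 (recovered AID-DIvA WT), LINC00343 and LINC00461 (untreated U2OS WT), LINC00346 (untreated AID-DIvA WT) and LINC00618 (untreated AID-DIvA KO). In a comparison that holds that group their values are a description, and counts of calls are also given for the other 136 members, a choice made after the data were seen.

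Long noncoding RNAs are transcribed, and mostly spliced and polyadenylated, like messenger RNAs, but act as RNA or through the act of their transcription. Many are low in level and found in few cell types, some host microRNAs in their introns or exons, and some have later been found to encode small proteins. Histone deacetylases (HDACs) remove acetyl groups from histones, and their inhibitors raise acetylation at promoters and enhancers and change the transcription of coding and noncoding genes in both directions. ID3 is a helix-loop-helix protein without a DNA-binding region of its own, which pairs with E proteins and keeps them from binding E-box sequences.

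The cells were WT and ID3-KO cells of the human osteosarcoma line U2OS, sequenced as 8 groups of 3 biological replicates. AID-DIvA cells are U2OS cells that carry a vector for the AsiSI restriction enzyme, and the WT and KO cells of that line were either untreated or given mocetinostat, an inhibitor of class I HDACs, for 24 h and then left for another 24 h without the drug. The U2OS cells, WT and KO, were either untreated or treated with mocetinostat, and were collected before recovery, a stage read from the series' design text and the study's methods. Stage and cell line therefore coincide and cannot be told apart, the untreated and treated labels of the AID-DIvA cells are those of the library titles, no dose is given for these libraries, and whether the KO cells are 1 clone is not given in the sources used here. The labels hold a separate entry for treatment that names the opposite of the title in all 12 AID-DIvA libraries. By that entry every log2 fold change after recovery would turn its sign and the stage differences would change with it. The AID-DIvA interactions of genotype and treatment would also turn their sign. The comparison of untreated AID-DIvA KO with WT cells would then be one of treated and recovered cells. By the titles, 620 genes were called higher and 115 lower with treatment at both stages in KO cells, while 57 were higher before and lower after recovery and 12 the reverse. In WT cells these were 564, 126, 62 and 8.

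Total counts ran from 37878751 to 76906266 per library, and the members together took between 0.133% and 0.166% of them as group means. ID3 was still counted in the KO libraries, with group means from 30.4 to 65.1 CPM (counts scaled to the size of the library) against 50.9 to 119 CPM in WT libraries. In U2OS cells KO stood against WT at 30.4 and 61.7 CPM untreated and 35.3 and 81.7 treated. AID-DIvA cells had 34.8 and 50.9 CPM untreated and 65.1 and 119 recovered, so ID3 RNA was lower in KO cells of each condition. The study checked the knockout by Western blot. COL1A1, SPARC and VIM, markers of bone and mesenchymal cells, were high throughout (6 markers summed to between 2242 and 4613 CPM, of which 4 to 6 reached 1 CPM), while COL1A2 lay between 0.138 and 1.24 CPM as group means. No library group had any of 4 haematopoietic markers at 1 CPM, and HBB was at 0 in all groups. The 4 epithelial markers summed to 17.4 to 23.0 CPM in untreated libraries, 27.02 to 42.4 CPM after recovery and 46.3 to 64.7 CPM in treated U2OS libraries, and the 2 endothelial markers measured summed to 1.63 to 10.9 CPM. Their part in the responses below was not tested. In bulk RNA, fewer cells that express a gene and less of its RNA per cell cannot be told apart. Replicate 1 of the untreated U2OS WT cells stood apart from the other 2 (chi-square per gene of 116 and 100, against 2.91 to 30.1 for all other pairs of replicates), and counts of calls that rest on it are given with and without it.

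Most of the members' RNA came from few genes. Of their 2083483 counts, 19.8% belonged to LINC00657 (NORAD, an abundant RNA known to bind Pumilio proteins), and 55.7% to the first 10 members. The median member had 3409 counts, 111 members had a mean of at least 1 CPM over all libraries, and 30 had at least 10 CPM. Per kilobase of exonic length, which allows an order between genes, the highest levels were those of LINC00657 (56.1 CPM per kb), LINC00973 (34.7), LINC00958 (31.8), LINC00162 (28.5, also named PICSAR) and LINC00839 (22.99). They were followed by LINC00998 (20.2 CPM per kb, now SMIM30), LINC00493 (19.5, now SMIM26), LINC00537 (16.8), LINC00508 (14.6) and LINC01021 (14.01, PURPL, known as a target of p53). LINC00657 lay between 246 and 354 CPM as group means, with 267 ± 37.97 CPM in untreated U2OS WT cells (mean ± SD, n = 3), 294 ± 13.4 in treated ones, 354 ± 15.3 in untreated AID-DIvA WT cells and 334 ± 19.01 after recovery.

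The ratio of the highest to the lowest group mean was 2.29 for the median member. It was above 2 for 86 members, above 4 for 31 and below 1.5 for 21. Untreated U2OS WT cells held the highest mean of 34 members and the lowest of only 5, whereas treated U2OS KO cells held the lowest mean of 31. Recovered AID-DIvA WT cells held the highest mean of 29 members. The highest and lowest groups were not counted over all genes, and the means include replicate 1 of the untreated U2OS WT cells. LINC00624 was the 1 member with a group at 0 and with most of its counts in 1 group.

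**Figure D1:**
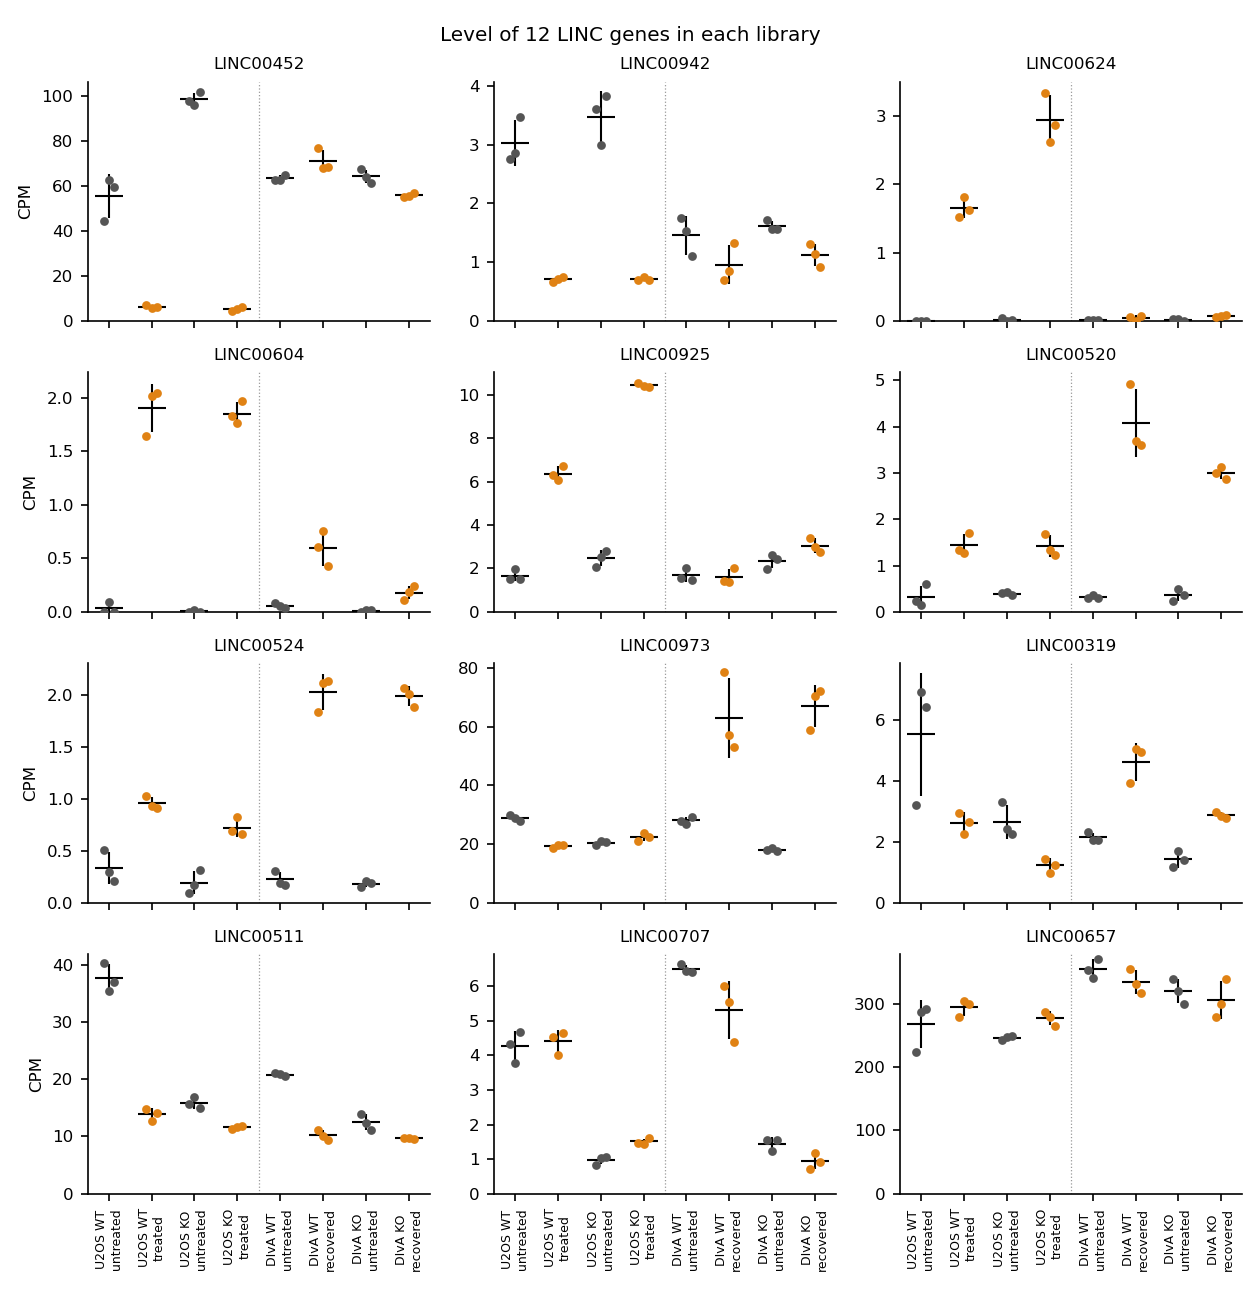
Level in CPM (y axis, from 0, linear) of 12 members in each library, by group on the x axis. Each point is 1 library, grey untreated and orange treated or recovered, the horizontal bar is the group mean and the vertical bar the SD of 3 replicates. LINC00452 fell from between 44.5 and 102 CPM to between 4.55 and 6.92 CPM in treated U2OS cells and lay between 55.0 and 76.7 CPM in all AID-DIvA libraries, while LINC00973 exceeded 50 CPM in recovered AID-DIvA cells alone.

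Each treated group was compared with the untreated group of its own genotype and line in edgeR (quasi-likelihood test, Benjamini-Hochberg adjustment over all genes tested). Calls needed an adjusted p below 0.05 and a change beyond 1 or -1 on the log2 scale, and a value after ± beside a log2 fold change is its standard error. Before recovery, 20 of 147 members were called higher in U2OS WT cells (13.6%, against 13.6% of all genes tested) and 22 in U2OS KO cells (15%, against 14.6%), shares close to those of all genes and above the 9.16% and 10.5% of other long noncoding RNA genes with at least 500 summed counts. Among the 136 members that did not need their highest group to be chosen, 14 (10.3%) were higher in WT and 16 (11.8%) in KO cells. The share that fell was above that of all genes, with 15 members in WT cells (10.2%, against 5.06%) and 17 in KO cells (11.6%, against 5.77%). Other long noncoding RNA genes were called lower at similar shares, 11.2% in WT and 11.6% in KO cells, and of the 136 members 15 and 16 were. In WT cells 22 members were higher and 14 lower without replicate 1 of the untreated cells. Across members the median log2 fold change was -0.18 in WT cells and -0.05 in KO cells, beside 0.01 and 0.00 over all genes.

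After recovery more members were called higher than lower. Of 145 tested, 11 were called higher in AID-DIvA WT cells (7.59%, against 4.86% of all genes and 5.69% of other long noncoding RNAs) and 17 in KO cells (11.7%, against 4.9% and 5.66%). Only 3 were called lower in WT cells, where 2.52% of all genes were, and 1 in KO cells, where 2.56% were. Of the 136 members 7 (5.15%) were higher in WT and 13 (9.56%) in KO cells, and 2 and 1 lower. The medians were 0.10 in WT and 0.01 in KO cells, beside -0.00 and -0.02 over all genes. Over the 4 treatment comparisons, 30 members were called higher at least once, 23 lower at least once, LINC00319 both, and 95 in none. For these counts, and for the sets of members grouped below by pattern, the share over all genes was not counted. They describe the members and are not read as a trait of LINC genes.

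**Figure D2:**
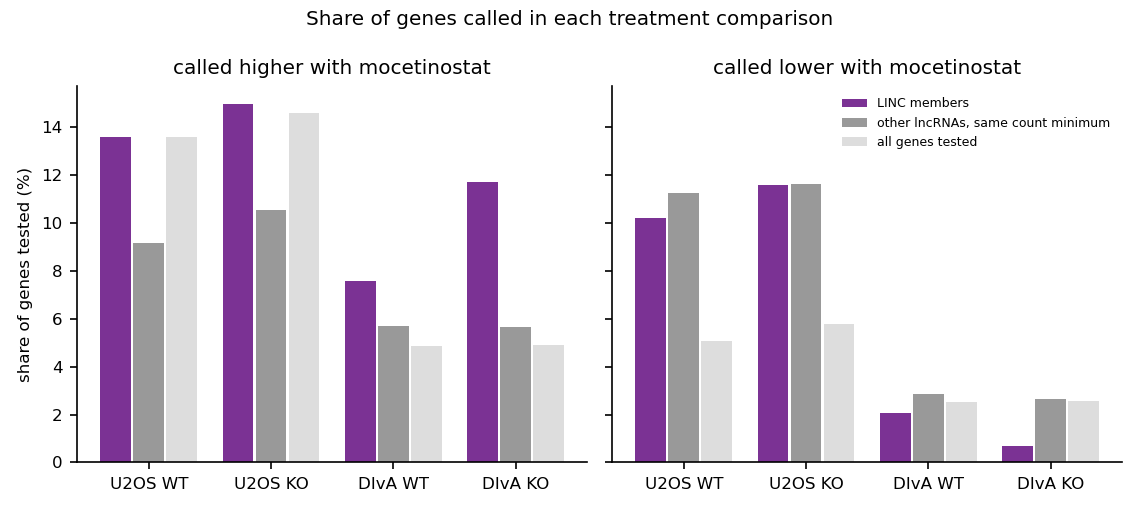
Share of genes tested (y axis, %) called higher (left) or lower (right) with mocetinostat in each treatment comparison (x axis), for the LINC members, other long noncoding RNAs with at least 500 summed counts, and all genes tested. Before recovery the members' bars reach 15% higher and 11.6% lower, and after recovery they reach 11.7% higher while 3 members at most were called lower.

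LINC00452 had the largest fall of any member. This gene (ENSG00000229373.4, chromosome 13, 114586640 to 114626485, plus strand of hg19/GRCh37) was at 44.5, 62.8 and 59.5 CPM in the 3 untreated U2OS WT libraries and at 6.92, 5.70 and 6.07 CPM in the treated ones. In U2OS KO cells it was at 97.8, 96.1 and 102 CPM untreated and at 4.55, 5.33 and 6.21 CPM treated. The groups were far apart in both genotypes, and all 6 treated libraries lay below 7 CPM. The log2 fold changes were -3.16 ± 0.15 (adjusted p = 4.20e-06) in WT and -4.19 ± 0.07 (adjusted p = 1.17e-21) in KO cells. After recovery it was at 76.7, 68.1 and 68.5 CPM in WT cells, against 62.5, 62.5 and 65.03 CPM untreated, and at 55.03, 55.7 and 56.97 CPM in KO cells, against 67.4, 64.1 and 61.5. Those differences, 0.19 and -0.20 on the log2 scale, passed the test on p (adjusted p = 0.00838 and 0.0293) but were far below the fold threshold.

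A further 10 members were called lower before recovery in both genotypes and not lower after it in either. LINC00942 (ENSG00000249628.2, chromosome 12, 1609691 to 1616484, minus strand in the deposited annotation, whereas RefSeq gives this name to a gene on the plus strand) went from 2.75, 2.86 and 3.47 to 0.669, 0.713 and 0.739 CPM in WT cells and from 3.61, 2.996 and 3.83 to 0.689, 0.751 and 0.691 CPM in KO cells, with log2 fold changes of -2.09 ± 0.16 (adjusted p = 3.28e-05) and -2.29 ± 0.16 (adjusted p = 8.36e-12). LINC00085, now named SPACA6 after a sperm protein needed for fertilization, went from 6.16, 5.16 and 5.52 to 1.28, 1.19 and 1.56 CPM in WT cells and from 6.88, 7.45 and 5.55 to 1.60, 1.87 and 2.09 CPM in KO cells (-2.06 ± 0.15, adjusted p = 2.57e-05, and -1.83 ± 0.13, adjusted p = 1.18e-11). For neither gene did the untreated and treated libraries overlap. After recovery LINC00942 had log2 fold changes of -0.56 in WT and -0.53 in KO cells and LINC00085 of -0.62 and -0.49, all within the fold threshold.

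LINC00578 and LINC00858 showed the same order at lower levels. LINC00578 was at 1.44, 0.917 and 1.05 CPM in untreated and 0.304, 0.238 and 0.370 CPM in treated WT cells. Its log2 fold changes were -1.88 ± 0.28 (adjusted p = 0.000976) in WT and -2.26 in KO cells. In KO cells it passed the filter on low counts only with the untreated group, so that value is a description. LINC00858 had log2 fold changes of -1.38 ± 0.20 in WT and -1.85 ± 0.22 in KO cells. LINC00662, one of the more abundant members, fell from 48.4, 67.8 and 66.6 to 28.8, 28.7 and 30.6 CPM in WT cells (-1.05 ± 0.13, adjusted p = 0.000373) and from 71.6, 67.9 and 70.04 to 23.9, 26.2 and 26.96 CPM in KO cells (-1.44 ± 0.05, adjusted p = 1.13e-16). In WT cells the fold of LINC00662 fell just short of the threshold without untreated replicate 2 or 3 (-0.98 and -0.99). LINC00106, at or below 1.58 CPM in every library, had log2 fold changes of -1.11 (adjusted p = 0.0133, and -0.93 or -0.89 without treated or untreated replicate 2) and -1.78 (adjusted p = 5.69e-07). LINC00689 was at 5.25, 10.96 and 10.2 CPM in the untreated WT libraries, where replicate 1 was lowest, and fell to 3.45, 4.04 and 3.45 CPM (-1.27 ± 0.26, adjusted p = 0.00477), with -1.44 in KO cells (adjusted p = 4.83e-12).

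For 3 of the 11 members most reads lay on the strand opposite to the annotated gene. LINC00896 had 7.74% of its counts on the annotated strand, and the log2 fold changes of its counts from either strand were -1.36 in WT and -1.32 in KO cells, and -0.91 in KO cells on the annotated strand alone. LINC00565 (SWINGN), with 13.7%, fell by counts from either strand from 3.55, 3.65 and 3.81 to 0.705, 0.440 and 0.750 CPM in KO cells (-2.51 ± 0.16, adjusted p = 4.17e-12) and had -1.76 in WT cells (adjusted p = 0.00169). Its start and end are 114629487 and 114631817 on chromosome 13, minus strand, 3001 bases from the end of LINC00452 on the plus strand, so reads on its opposite strand run in the direction of LINC00452. Counted on the annotated strand alone, LINC00565 turned to 0.70 in WT (adjusted p = 0.101) and 0.23 in KO cells (adjusted p = 0.552). The share of its counts on the annotated strand was 2.93% to 9.06% in the 4 untreated groups, 16.3% and 30.3% after recovery and 49.3% and 52.6% in the treated U2OS groups.

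The third such member, LINC00319, is outside the rule for named genes and was chosen after its values were seen. Only 0.302% of its counts lay on its annotated plus strand, and its neighbour LINC00313, 8200 bases away, is on the minus strand that holds the other reads. It was at 3.23, 6.94 and 6.42 CPM in untreated and 2.95, 2.26 and 2.65 CPM in treated U2OS WT cells, where its log2 fold change was -1.07 ± 0.28 (adjusted p = 0.0137), with -1.10 in KO cells (adjusted p = 4.82e-06). In AID-DIvA cells it went the other way, from 2.32, 2.06 and 2.07 to 3.92, 5.04 and 4.95 CPM in WT cells (1.13 ± 0.12, adjusted p = 7.16e-06) and from 1.16, 1.71 and 1.41 to 2.99, 2.85 and 2.78 CPM in KO cells (0.996 ± 0.14, adjusted p = 0.000459), just short of the fold threshold. Without KO recovered replicate 3 or KO untreated replicate 2 the latter was called, at 1.03 or 1.14. The calls before recovery rested on single libraries. Without KO treated replicate 2 or KO untreated replicate 1 the log2 fold change was -0.97 or -0.92. Without WT treated replicate 2 or 3 or WT untreated replicate 2 or 3 it was -0.98 (adjusted p = 0.0587), -1.07 (adjusted p = 0.0516), -0.88 or -0.96.

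A group of 8 members was called higher before recovery in both genotypes and in neither after it. LINC00624 had no counts in the 3 untreated U2OS WT libraries and was at 1.52, 1.82 and 1.62 CPM in the treated ones. With 0 counts against 315, the rise was at least 111-fold, taking 3 counts over the untreated group as the floor. KO cells had 3 counts untreated and 533 treated, a ratio of 175 (exact 95% interval 59.6 to 852, counting error only), at 3.34, 2.62 and 2.87 CPM in the treated libraries. In all 12 AID-DIvA libraries LINC00624 stayed at or below 0.0876 CPM, and it was too low there to enter the test. This member was chosen, and passed the filter on low counts, through the groups in which it is high.

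LINC00925 (now MIR9-3HG, the host transcript of miR-9-3; ENSG00000255571.2, chromosome 15, 89904810 to 89939471, plus strand) rose from 1.53, 1.96 and 1.502 to 6.30, 6.06 and 6.73 CPM in U2OS WT cells and from 2.07, 2.51 and 2.80 to 10.6, 10.4 and 10.4 CPM in KO cells. Groups did not overlap in either genotype, and the log2 fold changes were 1.93 ± 0.14 (adjusted p = 2.42e-05) and 2.08 ± 0.10 (adjusted p = 9.99e-15). After recovery it was at 1.42, 1.37 and 2.01 CPM in WT cells, overlapping the untreated libraries, and at 3.41, 2.97 and 2.74 CPM in KO cells against 1.97, 2.63 and 2.45 CPM untreated (0.36 ± 0.13, adjusted p = 0.0544). MicroRNA miR-9 is known for its part in neural development and is made from hosts on 3 chromosomes, of which those on chromosomes 5 (LINC00461) and 15 (LINC00925) are members. The mature sequences from RefSeq, given here because both hosts yield the same pair, are at chr15:89368032-89368054 and chr15:89368071-89368092 on the plus strand for LINC00925 and at chr5:88666902-88666924 and chr5:88666866-88666887 on the minus strand for LINC00461 (GRCh38.p14). Capitals mark the seed, bases 2 to 8, and mature microRNAs themselves were not measured.
hsa-miR-9-5p: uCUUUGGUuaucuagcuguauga
hsa-miR-9-3p: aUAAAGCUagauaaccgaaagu

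LINC00086 and LINC00087, now SMIM10L2A and SMIM10L2B, are a near-identical pair on the X chromosome, so the split of reads between them is uncertain. LINC00086 went from 3.17, 3.24 and 2.52 to 7.10, 6.63 and 6.16 CPM in U2OS WT cells (1.15 ± 0.13, adjusted p = 0.000287) and LINC00087 from 3.59, 2.87 and 3.14 to 7.53, 8.30 and 7.43 CPM (1.27 ± 0.12, adjusted p = 0.000109). Their log2 fold changes in KO cells were 1.55 and 1.06, and after recovery they lay between -0.56 and -0.02. LINC00632, the host of the circular RNA CDR1as, known as a binder of miR-7, rose from 2.17, 2.71 and 2.97 to 6.54, 7.23 and 6.84 CPM in WT cells (1.39 ± 0.13, adjusted p = 0.000111) and had a log2 fold change of 1.14 in KO cells. After recovery it was still above untreated cells in KO cells (0.57 ± 0.11, adjusted p = 0.00285), without reaching the fold threshold. Counts per gene do not separate CDR1as from its host.

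LINC00936 (ATP2B1-AS1) rose from 1.67, 1.30 and 1.75 to 4.38, 4.02 and 4.41 CPM in U2OS WT cells (1.45 ± 0.15, adjusted p = 0.000147) and from 1.10, 1.09 and 0.851 to 4.5005, 4.29 and 3.96 CPM in KO cells (2.07 ± 0.14, adjusted p = 5.12e-12). It overlaps ATP2B1, a plasma membrane calcium pump, had 70.4% of its counts on its own strand, and ATP2B1 was itself called higher by 1.07 in WT and 1.04 in KO cells. LINC00355 had log2 fold changes of 1.59 in WT and 1.08 in KO cells, the latter 0.96 without KO untreated replicate 1. LINC00693, outside the rule and named to complete the 8, had 1.38 and 1.55. For these 3 members the groups before recovery did not overlap, and no call was made after recovery, where the log2 fold changes lay between -0.21 and 0.47.

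LINC00604 was called higher in the 3 treatment comparisons in which it was tested. It was listed at 0, 0.0958 and 0 CPM in untreated and 1.64, 2.02 and 2.05 CPM in treated U2OS WT cells (a log2 fold change of 5.64). It reached the minimum of 500 summed counts only with the treated U2OS WT cells, where it was highest, so this rise is a description. Treated U2OS KO cells held 336 of its 835 counts, and without them the sum would also have fallen under the minimum. The rise in U2OS KO cells is therefore a description as well. There 1 count untreated stood against 336 treated, a ratio of 331 (exact 95% interval 59.0 to 13116, counting error only). After recovery it was at 0.606, 0.752 and 0.425 CPM in WT cells, against 0.0821, 0.0519 and 0.0318 CPM untreated (a log2 fold change of 3.43). There it passed the filter on low counts only with the recovered group, so this rise is also a description. The values after recovery were lower than those before it, 0.595 ± 0.164 against 1.90 ± 0.226 CPM (mean ± SD, n = 3). The difference between stages holds the treated U2OS groups, so it is given as a description, and it turned on single libraries. It was -2.21 in WT cells, but -6.34 without U2OS untreated replicate 2. In KO cells it was -4.02. Its call there was lost without AID-DIvA recovered replicate 2, AID-DIvA untreated replicate 2 or 3, U2OS treated replicate 3 or U2OS untreated replicate 1 or 3.

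A set of 7 members was called higher in all 4 comparisons, a count given without its share over all genes. Of these, LINC00243, LINC00473 and LINC01059 were chosen through a treated or recovered group, which leaves 4 that were not. LINC00520 (ENSG00000258791.3, chromosome 14, 56247864 to 56263406, minus strand) went from 0.308, 0.363 and 0.302 CPM to 4.93, 3.69 and 3.60 CPM in AID-DIvA WT cells and from 0.239, 0.5002 and 0.358 to 2.99, 3.13 and 2.87 CPM in KO cells. No untreated library overlapped the recovered ones, and the log2 fold changes were 3.66 ± 0.19 (adjusted p = 5.23e-09) and 3.0001 ± 0.20 (adjusted p = 3.08e-06). Before recovery it reached 1.34, 1.27 and 1.70 CPM in WT cells (a log2 fold change of 2.19) and 1.68, 1.34 and 1.23 CPM in KO cells (1.84 ± 0.22, adjusted p = 8.31e-08). In U2OS WT cells it passed the filter on low counts only with the treated group, so that value is a description.

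LINC00524 had nearly the same profile. It rose from 0.308, 0.190 and 0.175 to 1.84, 2.12 and 2.14 CPM in AID-DIvA WT cells (a log2 fold change of 3.22). In KO cells it went from 0.154, 0.208 and 0.188 to 2.08, 2.02 and 1.88 CPM (3.41). In both genotypes it passed the filter on low counts only with the recovered group, so these rises are a description. In treated U2OS cells it was at 1.03, 0.931 and 0.911 CPM (WT) and 0.689, 0.825 and 0.660 CPM (KO), between untreated and recovered AID-DIvA cells. The response after recovery exceeded that before it by 1.73 for LINC00524 in WT cells (adjusted p = 0.00332) and by 1.15 for LINC00520 in KO cells (adjusted p = 0.00426). For LINC00524 in KO cells the difference was 1.54 (adjusted p = 0.00473), and 1.01 (adjusted p = 0.0776) without U2OS untreated replicate 3. For LINC00520 in WT cells it was 1.44 (adjusted p = 0.0293), with an adjusted p from 0.0553 to 0.149 without AID-DIvA recovered replicate 1, AID-DIvA untreated replicate 1 or 3, U2OS treated replicate 1 or 2 or U2OS untreated replicate 3, the last giving 0.74.

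LINC00884 (ATP13A3-DT) went the other way, with the larger response before recovery. It was at 2.51, 2.52 and 2.84 CPM in treated against 0.0153, 0.547 and 0.244 CPM in untreated U2OS WT cells (a log2 fold change of 3.24). There it passed the filter on low counts only with the treated group, so this rise is a description. After recovery WT cells had 0.739, 0.593 and 0.684 CPM against 0.349, 0.277 and 0.239 CPM (1.26 ± 0.24, adjusted p = 0.000682). Its log2 fold changes in KO cells were 2.86 before and 1.71 after recovery. KO cells had a stage difference of -1.16 (adjusted p = 0.00984), and WT cells one of -1.98 (adjusted p = 0.0339). The latter lost its call, at 0.0519 to 0.0909, without any 1 of the AID-DIvA or treated U2OS libraries or untreated U2OS replicate 3.

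The other 4 members of the set were at or below 2.48 CPM in every library. LINC00473, an RNA known to be induced through cyclic AMP and CREB, was at 0.144, 0.381 and 0.159 CPM in untreated and 1.19, 1.23 and 0.906 CPM in recovered AID-DIvA WT cells (a log2 fold change of 2.27), with log2 fold changes between 1.40 and 1.61 in the other 3 comparisons. LINC01059 is now counted as part of GRAMD1B, a cholesterol transfer protein gene, and rose from 0.431, 0.415 and 0.493 to 2.48, 1.94 and 2.20 CPM in AID-DIvA WT cells (2.32). GRAMD1B, 65226 bases away in the deposited annotation, was itself called higher there by 1.25. In U2OS WT cells the call of LINC01059 (1.17) was lost without treated replicate 2 (0.95) or untreated replicate 2 or 3 (adjusted p = 0.0575 and 0.053), which would leave 6 members in the set. LINC00243 had log2 fold changes of 1.28, 2.34, 1.92 and 2.01 in U2OS WT, U2OS KO, AID-DIvA WT and AID-DIvA KO cells. LINC01056 had 1.41, 1.26, 1.56 and 1.55 in the same order.

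LINC00973 led the 6 members that were called higher after recovery alone. This gene (ENSG00000240476.1, chromosome 3, 98699902 to 98701940, plus strand) was at 27.99, 26.9 and 29.3 CPM in untreated and 78.5, 57.2 and 53.2 CPM in recovered AID-DIvA WT cells, and at 17.8, 18.8 and 17.6 and 58.98, 70.3 and 72.1 CPM in KO cells. The groups were well apart in both genotypes, and replicate 1 was the highest of the recovered WT libraries. Log2 fold changes were 1.19 ± 0.14 (adjusted p = 0.000243) and 1.89 ± 0.09 (adjusted p = 7.08e-07). Before recovery it fell in U2OS WT cells, from 29.8, 28.8 and 27.96 to 18.6, 19.8 and 19.8 CPM (-0.57 ± 0.07, adjusted p = 0.000415), by less than the fold threshold, and in KO cells it was at 19.8, 21.003 and 20.6 CPM untreated and 20.96, 23.8 and 22.3 CPM treated (0.13 ± 0.06, adjusted p = 0.0557). The response after recovery exceeded that before it by 1.75 ± 0.16 in WT (adjusted p = 1.61e-06) and 1.76 ± 0.10 in KO cells (adjusted p = 1.69e-10).

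LINC00460, an RNA studied in several carcinomas, was at 10.2, 10.1 and 9.41 CPM in untreated and 20.7, 17.2 and 17.3 CPM in recovered WT cells (0.92 ± 0.08, adjusted p = 6.65e-07) and rose from 7.80, 7.41 and 7.48 to 18.3, 16.4 and 14.9 CPM in KO cells (1.12 ± 0.09, adjusted p = 8.27e-06). It is named after its values were seen, as are LINC00313, LINC00226 and LINC00592. LINC00313 was called in both genotypes (1.18 in WT and 1.51 in KO cells), rising from 0.564, 0.542 and 0.528 to 1.54, 1.78 and 1.29 CPM in KO cells, while its values before recovery were -0.72 and -0.70. LINC00226 and LINC00592 were called in KO cells alone (1.04 and 1.07), and in WT cells they had 0.64 and 0.67. Without KO recovered replicate 1 or KO untreated replicate 2 LINC00226 had 0.91 or 0.89, and without KO recovered replicate 2 or KO untreated replicate 1 LINC00592 had 0.87 or 0.94. The interaction test of the KO against the WT response after recovery was not passed by either of them (adjusted p = 0.526 and 0.632), nor by LINC00460 (adjusted p = 0.519).

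LINC00552 was the 1 member called lower after recovery in both genotypes. It went from 0.863, 0.969 and 0.987 to 0.246, 0.388 and 0.407 CPM in WT cells (-1.42 ± 0.23, adjusted p = 0.00017) and from 0.667, 0.653 and 0.923 to 0.284, 0.228 and 0.438 CPM in KO cells (-1.25 ± 0.28, adjusted p = 0.00642). Before recovery it had -0.27 in WT (adjusted p = 0.374) and -0.93 in KO cells (adjusted p = 0.00088).

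Many calls were shared between the genotypes of 1 line. Before recovery 18 members were called higher in both genotypes (81.8% of the KO and 90% of the WT calls), where over all genes 76.3% and 79.6% of the calls were shared. Lower in both were 11 (64.7% and 73.3%, against 61.5% and 68.1% over all genes). The shared counts were also 18 and 11 without replicate 1 of the untreated U2OS WT cells. After recovery 9 were higher in both (52.9% of the KO and 81.8% of the WT calls, against 66.8% and 67.5% over all genes), and of 1 lower in KO and 3 in WT cells 1 was shared. Between the stages 12 members were higher in KO cells of both lines (54.5% of those before and 70.6% of those after recovery, against 20.1% and 62.2% over all genes) and 8 in WT cells of both (40% and 72.7%, against 19.1% and 57.2%). LINC00511 in WT cells was the only member lower at both stages of a genotype. The shared rises include members that reached the minimum only with a treated or recovered group. LINC00243, LINC00473 and LINC01059 were in every set of shared rises, and LINC00494, LINC00604 and LINC00624 in some. The shares of shared rises are therefore a description, and no excess over all genes is read from them.

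The difference between the responses was tested directly for each genotype, as the log2 fold change after recovery minus that before it. In WT cells 74 of 147 members (50.3%) differed at an adjusted p below 0.05, against 42.2% of all genes tested. Of these 51 had the higher value after recovery and 23 the lower. In KO cells 75 differed (51.0%), 49 higher and 26 lower, against 52.5% of all genes. Of other genes with at least 500 summed counts 47.9% differed in WT and 58.6% in KO cells. The split by direction was not counted over all genes. The members' median difference was 0.18 in WT and 0.17 in KO cells, beside -0.01 and -0.04 over all genes. Without replicate 1 of the untreated U2OS WT cells the count in WT cells was 80. LINC00452 had the smallest adjusted p of those that were higher after recovery, with 3.33 ± 0.16 (adjusted p = 6.95e-09) in WT and 3.98 ± 0.11 (adjusted p = 1.59e-14) in KO cells. LINC00086 (-1.72, adjusted p = 1.28e-05) and LINC00925 (-1.99, adjusted p = 1.79e-05) led those that were lower in WT cells. In KO cells LINC00925 (-1.73), LINC00086 (-1.80), LINC00883 (-0.86, now DUBR) and LINC00936 (-1.67) led in that direction (adjusted p from 1.30e-07 to 1.66e-06).

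LINC00963 and LINC00842 belonged to those that were higher after recovery than before. LINC00963, one of the most abundant members, was at 134, 131 and 132 CPM in untreated and 61.5, 57.8 and 60.7 CPM in treated U2OS KO cells (-1.14 ± 0.04, adjusted p = 3.61e-16) and at 152, 151 and 156 and 128, 119 and 119.9 CPM in AID-DIvA KO cells (-0.33 ± 0.06, adjusted p = 0.00141). The groups did not overlap at either stage, and the log2 fold changes differed by 0.81 (adjusted p = 3.63e-08). For LINC00842 the corresponding values in KO cells were -1.19 before recovery and 0.22 after it, a difference of 1.40 (adjusted p = 1.52e-07).

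**Figure D3:**
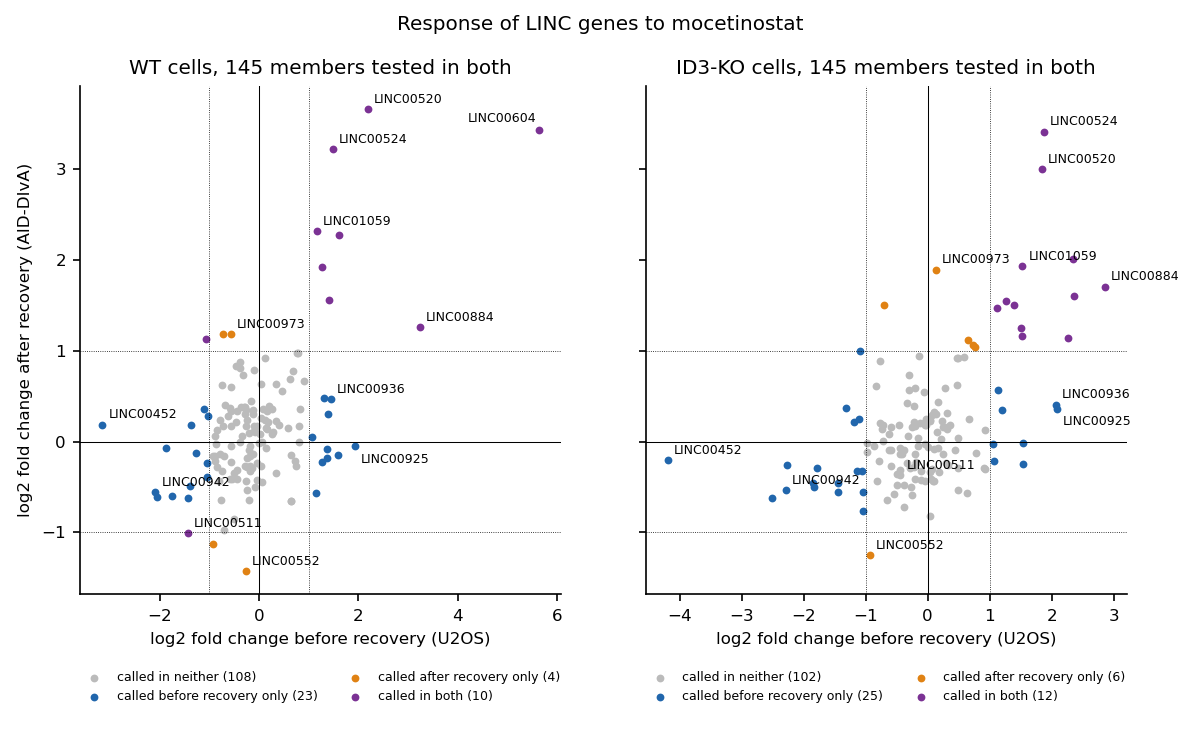
Log2 fold change with mocetinostat before recovery in U2OS cells (x axis) and after recovery in AID-DIvA cells (y axis) for the 145 members tested at both stages, WT left and ID3-KO right. Colours give in which comparison a member was called and dotted lines the fold threshold of 1 and -1. LINC00520, LINC00524 and LINC00884 lie in the upper right, LINC00452 far left near 0 on the y axis, and LINC00973 above 1 on the y axis with no rise before recovery.

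Promoter sequences of RefSeq (GRCh38.p14), 250 bases before to 50 bases after each start, were found for 105 members. Letters of 6 motifs were searched on both strands. The E-box letters CAGCTG were in 21.0% of member promoters and 17.7% of all 27305 promoters, and the E-box letters CACCTG in 22.9% and 20.6%. The CRE letters TGACGTCA were in 1.90% and 1.98%, the GC box GGGCGG in 41.9% and 44.6% and the TATA box TATAAA in 10.5% and 12%. The AP-1 letters TGANTCA were in 16.2% of member promoters and 7.76% of all promoters, while the median GC content was 57.7% and 58.3%. None of these motifs contains another.

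Among members called higher in at least 1 treatment comparison, 23 had a promoter in the table and 5 of these held TGANTCA (21.7%), against 1 of 13 called lower (7.69%, LINC00963) and 11 of 69 called in none (15.9%). The letters lay 185 bases before the start of LINC00973, 63 before that of LINC00604, 44 and 17 before that of LINC00460, 228 before that of LINC00494 and 154 before that of LINC00601. These are matches of letters in a window and no binding was measured. The promoters of 3 of these genes, shown because LINC00973 led the members called after recovery alone and LINC00604 was at or near 0 in untreated U2OS cells, and because LINC00460 held the letters at 2 places, are at chr3:98914316-98914615 (LINC00973), chr5:40240097-40240396 (LINC00604) and chr13:106376314-106376613 (LINC00460), all on the plus strand, with capitals for TGANTCA.
LINC00973: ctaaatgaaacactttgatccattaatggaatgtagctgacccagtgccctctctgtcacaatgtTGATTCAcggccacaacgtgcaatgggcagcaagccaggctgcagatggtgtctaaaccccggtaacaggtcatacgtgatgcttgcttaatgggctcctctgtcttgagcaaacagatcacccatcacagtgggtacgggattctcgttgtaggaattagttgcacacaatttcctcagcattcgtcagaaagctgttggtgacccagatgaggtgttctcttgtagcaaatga
LINC00604: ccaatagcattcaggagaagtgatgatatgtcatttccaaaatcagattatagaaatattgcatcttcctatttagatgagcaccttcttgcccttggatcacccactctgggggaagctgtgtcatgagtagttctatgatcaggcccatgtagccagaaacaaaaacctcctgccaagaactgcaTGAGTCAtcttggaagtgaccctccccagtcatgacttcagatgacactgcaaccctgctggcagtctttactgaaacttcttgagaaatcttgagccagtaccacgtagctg
LINC00460: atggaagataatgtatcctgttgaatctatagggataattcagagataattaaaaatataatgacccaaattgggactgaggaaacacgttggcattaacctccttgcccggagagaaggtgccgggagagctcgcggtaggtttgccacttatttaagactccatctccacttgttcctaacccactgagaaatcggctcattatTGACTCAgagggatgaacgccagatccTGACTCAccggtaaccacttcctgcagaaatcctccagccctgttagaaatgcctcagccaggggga

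Untreated KO cells were compared with untreated WT cells of the same line. These comparisons share their untreated libraries with the treatment comparisons. In AID-DIvA cells 8 of 143 members were called lower in KO (5.59%, against 2.3% of all genes and 2.93% of other long noncoding RNAs) and 1 higher (LINC00862, where 2.27% of all genes were). In U2OS cells 10 of 144 were called lower (6.94%, against 2.84% and 3.74%) and 0 higher, where 1.42% of all genes were. At an unadjusted p below 0.05 edgeR gave 10 members higher and 41 lower of 144 in U2OS cells. Of all 20621 genes tested 6059 passed in either direction, and their split by direction was not counted. DESeq2 also called 0 members higher. Without replicate 1 of the untreated U2OS WT cells 12 members were lower and 0 higher, and 1 was higher without replicate 3 of those cells. Of the 8 and 10 members called lower, 7 were the same (87.5% and 70%, against 57.5% and 46.2% over all genes called lower): LINC00029, LINC00312, LINC00461, LINC00601, LINC00640, LINC00707 and LINC00920. Leaving out replicate 1 of the untreated U2OS WT cells, 7 were shared as well. Of the 136 members 6 were lower in AID-DIvA and 9 in U2OS cells.

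LINC00707 had the largest difference in AID-DIvA cells. Untreated WT cells held 6.63, 6.44 and 6.41 CPM and KO cells 1.56, 1.22 and 1.56 CPM (-2.19 ± 0.11, adjusted p = 2.99e-10). In U2OS cells the values were 4.34, 3.78 and 4.68 CPM in WT and 0.831, 1.02 and 1.06 CPM in KO cells (-2.13 ± 0.16, adjusted p = 0.000205). No WT library overlapped a KO library in either line, and the levels in treated cells kept that order, with 1.48, 1.45 and 1.61 CPM in treated U2OS KO cells against 4.55, 4.02 and 4.66 CPM in treated WT cells.

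LINC00461 (MIR9-2HG, the other miR-9 host; ENSG00000245526.4, chromosome 5, 87803363 to 87986858, minus strand) was at 0.887, 1.26 and 0.901 CPM in WT and 0.270, 0.167 and 0.248 CPM in KO cells of the untreated U2OS line (a difference of -2.16, given as a description since it was chosen through the untreated U2OS WT cells), and at 0.513, 0.640 and 0.605 and 0.239, 0.236 and 0.188 CPM in untreated AID-DIvA cells (-1.41 ± 0.24, adjusted p = 0.000272). LINC00925, whose mature microRNAs have the same sequences, was not lower in untreated KO cells, with 0.55 in U2OS (adjusted p = 0.0759) and 0.46 in AID-DIvA cells (adjusted p = 0.0229). LINC00601 was at 5.71, 6.14 and 6.16 CPM in untreated AID-DIvA WT and 2.69, 2.33 and 1.90 CPM in KO cells (-1.39 ± 0.11, adjusted p = 4.61e-08), and in U2OS cells the difference was -1.33 (adjusted p = 0.00124). LINC00920 was at 5.55, 5.47 and 4.62 and 1.87, 1.76 and 2.07 CPM in untreated U2OS WT and KO cells (-1.46 ± 0.13, adjusted p = 0.000456), with -1.09 in AID-DIvA cells. For LINC00461, LINC00601 and LINC00920 every untreated WT library lay above every untreated KO library of its line.

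The remaining members of the shared set were low in level. LINC00312 had -1.85 in U2OS and -1.11 in AID-DIvA cells, LINC00640 had -1.60 and -1.13, and LINC00029 had -1.29 and -1.24. The call of LINC00312 in AID-DIvA cells was lost without KO untreated replicate 2 (-0.86), and that of LINC00640 without WT untreated replicate 1 (-0.98). In U2OS cells the call of LINC00640 was lost without KO untreated replicate 1 or 3 (adjusted p = 0.133 and 0.0745) or WT untreated replicate 2 or 3 (adjusted p = 0.0614 and 0.0777). There the call of LINC00029 was also lost without any KO untreated replicate or WT untreated replicate 2 or 3 (adjusted p from 0.0578 to 0.163). LINC01059 was called in AID-DIvA cells alone (-1.78), with -0.80 in U2OS cells (adjusted p = 0.312). In AID-DIvA cells it passed the filter on low counts only with the WT group, so that value is a description. In U2OS cells alone, LINC00511, LINC00987 and LINC00319 were called (-1.26, -1.23 and -1.07), the last with overlapping groups (adjusted p = 0.0489, and 0.0955 to 0.178 without any KO replicate or WT replicate 2 or 3), and whether the lines differ in these was not tested. LINC00862 rose from 6.35, 6.19 and 6.21 CPM in WT to 14.9, 15.4 and 13.5 CPM in KO AID-DIvA cells (1.21 ± 0.07, adjusted p = 1.26e-09), and in U2OS cells it was at 2.59, 4.09 and 4.58 and 7.24, 6.63 and 7.55 CPM (0.92 ± 0.20, adjusted p = 0.0197), short of the fold threshold.

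**Figure D4:**
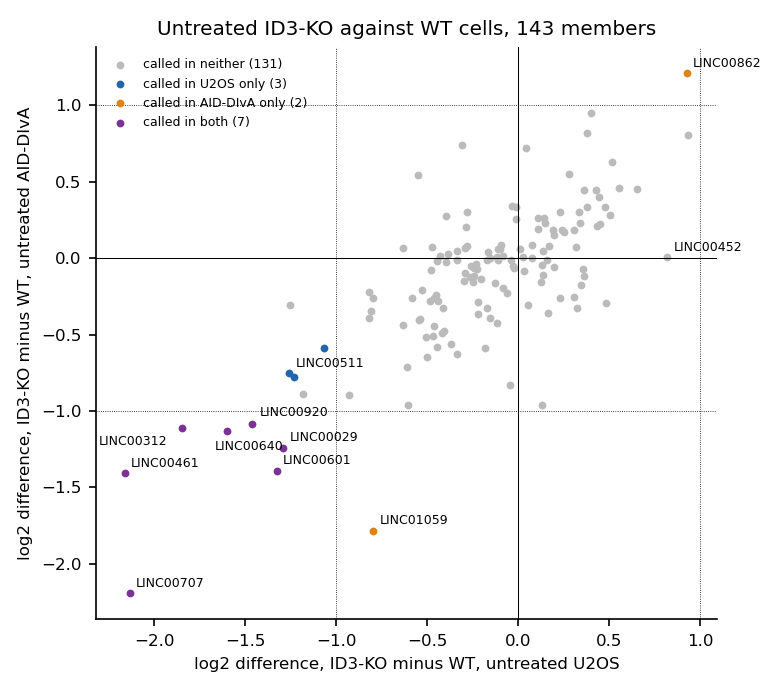
Log2 difference between untreated ID3-KO and WT cells in U2OS (x axis) and AID-DIvA (y axis) for the 143 members tested in both, coloured by where they were called, with dotted lines at 1 and -1. The 7 members called lower in both lines lie at the lower left, LINC00707 lowest on the y axis, and LINC00862 at the upper right.

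The genotypes' responses were compared by the interaction of genotype and treatment, called at an adjusted p below 0.05. It was passed by 6 of 147 members in U2OS cells, where 2.15% of all genes passed, and by 3 of 146 in AID-DIvA cells, where 1.21% did. Without replicate 1 of the untreated U2OS WT cells the former count was 13, and it was 3 without KO treated replicate 2 or 3, KO untreated replicate 1 or 2, or WT treated replicate 3. The latter was 1 without KO recovered replicate 2, KO untreated replicate 2 or any WT untreated replicate, and 5 without WT recovered replicate 1. LINC00511, an RNA studied in several carcinomas, passed in both lines. It went from 40.3, 35.4 and 37.1 to 14.9, 12.7 and 14.1 CPM in U2OS WT cells (-1.44 ± 0.09, adjusted p = 1.62e-05) and from 15.6, 16.8 and 14.9 to 11.4, 11.7 and 11.8 CPM in KO cells (-0.44 ± 0.07, adjusted p = 2.86e-06). In AID-DIvA cells it went from 21.03, 20.9 and 20.5 to 11.2, 10.03 and 9.39 CPM in WT (-1.01 ± 0.07, adjusted p = 8.84e-08) and from 13.9, 12.3 and 11.2 to 9.76, 9.67 and 9.51 CPM in KO cells (-0.37 ± 0.09, adjusted p = 0.00945). Thus untreated KO cells were lower than untreated WT cells, and the fall with treatment was larger in WT cells, by 1.003 ± 0.11 in U2OS (adjusted p = 0.000206) and 0.65 ± 0.12 in AID-DIvA cells (adjusted p = 0.00967). Without WT recovered replicate 3 the log2 fold change of AID-DIvA WT cells was -0.95, short of the fold threshold, while both interactions passed without any single library.

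LINC00973 and LINC00452 passed in U2OS cells without any single library as well. LINC00973 had -0.57 in WT and 0.13 in KO cells, an interaction of 0.71 ± 0.09 (adjusted p = 0.000767), and in AID-DIvA cells the interaction was 0.72 (adjusted p = 0.0588). In U2OS cells LINC00452 fell more in KO than in WT cells, from a higher untreated level, with an interaction of -1.03 ± 0.18 (adjusted p = 0.00765). In AID-DIvA cells, where the untreated levels of the genotypes overlapped, it had 0.19 in WT and -0.20 in KO cells, an interaction of -0.38 ± 0.08 (adjusted p = 0.0275). The latter call was lost, with an adjusted p up to 0.103, without KO recovered replicate 2, KO untreated replicate 1 or 2, or any of the 3 WT untreated replicates.

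The other 4 interactions each lost their call without any 1 of several libraries. LINC00601 had 0.70 in AID-DIvA cells (adjusted p = 0.0326), and 0.0628 to 0.0981 without KO recovered replicate 2, KO untreated replicate 2 or 3, WT recovered replicate 2 or 3, or any WT untreated replicate. In U2OS cells LINC00920 had 0.91 (adjusted p = 0.0196), and 0.0594 to 0.0689 without replicate 2 or 3 of the treated KO or WT cells or replicate 1 or 2 of the untreated KO cells. LINC00857 had -0.49 (adjusted p = 0.0255), and 0.0505 to 0.0869 without KO treated replicate 2 or 3, any KO untreated or WT treated replicate, or WT untreated replicate 2. LINC00461 was chosen through untreated U2OS WT cells, so its value of 1.87 (adjusted p = 0.0451) is a description. Its adjusted p was 0.0503 to 0.141 without any KO treated or untreated replicate, WT treated replicate 1 or 3, or WT untreated replicate 2 or 3.

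Of 19 LINC genes with a later protein name, 15 were members. In the treatment comparisons LINC00086, LINC00087 and LINC01059 were higher and LINC00085 lower in U2OS KO cells, and LINC00341 (SYNE3) and LINC00634 (SMIM45) joined these as higher and lower in U2OS WT cells. These were 3 higher and 1 lower of 15 in KO cells, where 14.6% and 5.77% of all genes were, and 4 higher and 2 lower in WT cells, where 13.6% and 5.06% were. LINC00634 was at 3.503, 1.61 and 2.01 CPM in untreated U2OS WT cells, and its call (-1.03) was lost without untreated replicate 1 (-0.62) or any treated replicate (adjusted p from 0.0526 to 0.0872). After recovery LINC01059 was the 1 called of 15 in either genotype, where 4.86% of all genes were higher in WT and 4.9% in KO cells. The list's medians were -0.04 in U2OS WT, -0.02 in U2OS KO, 0.17 in AID-DIvA WT and 0.04 in AID-DIvA KO cells. In the untreated comparisons LINC01059 alone was called, in AID-DIvA cells, and no interaction was. Differences between stages were called for 6 higher and 4 lower of 15 in WT and 6 higher and 5 lower in KO cells, where 42.2% and 52.5% of all genes differed in either direction. Among the higher in both were LINC00116 (mitoregulin, a mitochondrial microprotein), LINC00493 and LINC00998. The rest, LINC00094 (BRD3OS), LINC00176 (C20orf204), LINC00610 (COMMD9), LINC00672 (LASP1NB), LINC00984 (INAFM2) and LINC00999, were called in no treatment, untreated or interaction comparison.

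Of a list of 4 LINC genes that host microRNAs or CDR1as, LINC00461 and LINC00632 were members. The list is not complete, as it leaves out LINC00925, the host of miR-9-3 described above. LINC00461 was lower in recovered AID-DIvA WT cells (-1.12 ± 0.24, adjusted p = 0.00186) and had -0.30 in KO cells (adjusted p = 0.609). Of 17 widely studied LINC genes 11 were members, and LINC00473 was the 1 called higher with treatment, in all 4 comparisons. LINC00511 was lower in WT cells of both lines and LINC00963 in U2OS KO cells. Of all genes 13.6%, 14.6%, 4.86% and 4.9% were higher in U2OS WT, U2OS KO, AID-DIvA WT and AID-DIvA KO cells. Lower in the same order were 5.06%, 5.77%, 2.52% and 2.56%. In untreated KO cells LINC00707 and LINC00312 were lower in AID-DIvA cells (2 of 10 tested, where 2.3% of all genes were). These with LINC00511 were lower in U2OS cells (3 of 11, where 2.84% of all genes were). Between stages 4 were higher and 0 lower in WT cells (LINC00152, LINC00511, LINC00941 and LINC00963) and 3 higher and 3 lower in KO cells, where LINC00657, LINC00707 and LINC00467 were lower, beside 42.2% and 52.5% of all genes in either direction. The list's medians were -0.24 in U2OS WT, 0.17 in U2OS KO, -0.07 in AID-DIvA WT and -0.09 in AID-DIvA KO cells. LINC00346 and LINC01021 were called in none of the 10 comparisons.

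For comparison, 30 long noncoding RNAs outside the LINC naming were read from the same fits. MIAT was lower in all 4 treatment comparisons and in untreated KO cells of both lines. HOTAIR was lower in treated U2OS cells of both genotypes and MIR17HG in WT cells, MEG3 was higher in U2OS KO and MALAT1 in U2OS WT cells, and no other of the 26 or 27 tested was called with treatment. The shares of all genes called in these comparisons are those given for the widely studied LINC genes. Their medians were -0.21, -0.16, 0.02 and 0.02 in U2OS WT, U2OS KO, AID-DIvA WT and AID-DIvA KO cells. None passed an interaction test. Stage differences were called for 9 higher and 6 lower in WT cells and 10 higher and 4 lower in KO cells, beside the 42.2% and 52.5% of all genes.

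The libraries were stranded, and the deposited counts by strand show on which strand the members' reads lay. Over all libraries 93.5% of the members' counts were on the annotated strand, against 94.6% of the counts of all genes, and the median member had 99.8%. At least 99% was reached by 93 members and at least 90% by 121, while 15 lay between 50% and 90% and 11 below 50%. The lowest were LINC00308 and LINC00943 at 0%, LINC00319 at 0.302%, LINC00649 at 1.42%, LINC00896 at 7.74%, LINC00537 at 11.6% and LINC00565 at 13.7%. LINC00449 (31.2%), LINC00242 (37.9%), LINC01024 (47.9%) and LINC00526 (48.97%) made up the 11. Of these, 6 overlap no gene on the other strand in the deposited annotation, whereas 59 members do in all. LINC00537, among the 10 highest per kilobase by counts from either strand, therefore had most of that level from reads of the opposite strand.

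**Figure D5:**
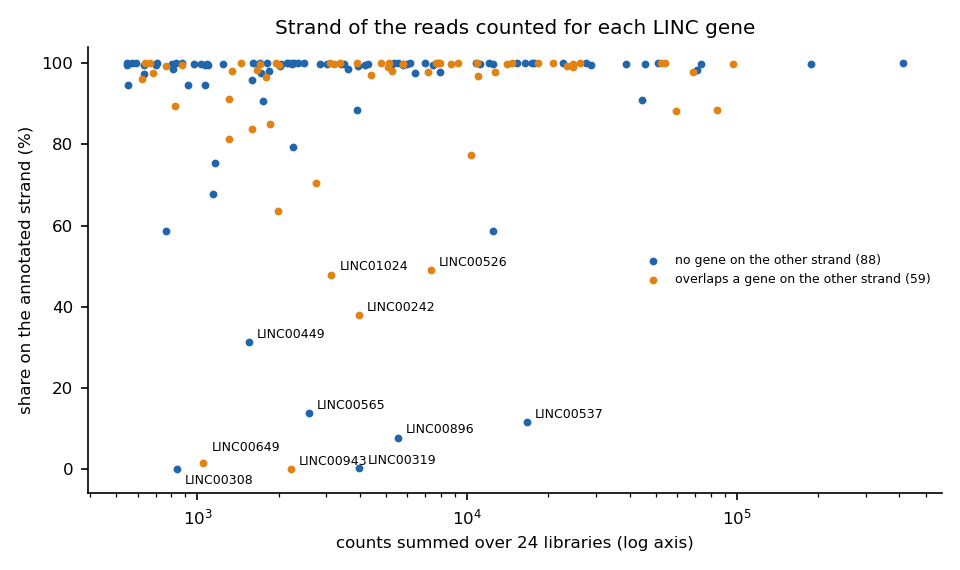
Share of each member's counts on its annotated strand (y axis, %) against its counts summed over 24 libraries (x axis, log scale), 1 point per member, coloured by whether the deposited annotation places a gene on the other strand. Most points lie near 100%, and the 11 named members lie below 50%, with LINC00308, LINC00943 and LINC00319 at or near 0%.

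Members lie close to each other in 7 pairs within 50000 bases. LINC00029 and LINC01056 start 982 bases apart and run away from each other, and both were called higher in U2OS WT cells (1.31 and 1.41) and U2OS KO cells (2.27 and 1.26). Both were also called in AID-DIvA KO cells (1.14 and 1.55), for LINC00029 not without KO untreated replicate 1 (0.95), while in AID-DIvA WT cells LINC00029 had 0.48 (adjusted p = 0.0942). LINC00452 and LINC00565 fell together in both genotypes by counts from either strand, and LINC00319 and LINC00313 in recovered AID-DIvA WT cells rose together. In the other 4 pairs (LINC00943 and LINC00944, LINC00667 and LINC00526, LINC00242 and LINC00574, LINC00163 and LINC00162) no pair was called in 1 direction.

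The nearest protein-coding gene was also read for each member, other than LINC00341, LINC00610 and LINC01059, which are now part of that gene (SYNE3, COMMD9 and GRAMD1B). In U2OS WT cells 4 of 27 tested neighbours of called members were called in the member's direction and 0 in the other, and in U2OS KO cells 5 of 26 and 0. Of the neighbours of all members 17.9% were called in either direction in WT and 23.6% in KO cells, and of all genes 18.6% and 20.3%. BHLHE23, a helix-loop-helix transcription factor gene 27182 bases from LINC00029, was higher by 2.21 and 1.19 in U2OS WT and KO cells. PREX1, beside LINC00494, was higher by 1.78 and 1.26. C10orf90, 3118 bases from LINC00601, was higher by 2.69 in U2OS KO cells, where LINC00601 had 1.12 (just under 1 without treated replicate 2). LINC00494 itself, chosen through treated U2OS WT cells, was at 0.168, 0.0958 and 0.188 CPM in untreated and 1.03, 1.11 and 0.951 CPM in treated U2OS WT cells (a log2 fold change of 2.78). After recovery 0 of 10 neighbours were called in WT cells (edgeR) and 2 of 12 in KO cells. Of the neighbours of all members 4.63% and 3.74% were called, and of all genes 7.38% and 7.46%. The 2 in KO cells were C10orf90, higher by 1.92, and KRT7, a keratin gene 8716 bases from LINC00592, higher by 2.46. Over all members with a tested neighbour, whether called or not, Spearman's rho between the log2 fold changes of member and neighbour was 0.27 in U2OS WT (n = 122), 0.22 in U2OS KO (n = 120), 0.098 in AID-DIvA WT (n = 114) and 0.097 in AID-DIvA KO cells (n = 112), where members of a comparison share its libraries.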

How the data were processed

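Total RNA of 24 libraries was measured by stranded paired-end sequencing. The authors aligned reads to hg19/GRCh37 with STAR, counted fragments per gene with featureCounts and deposited raw counts from either strand and by strand. Counts from either strand were used. The deposited FPKM and TPM columns were not used. For all 12 AID-DIvA libraries the treatment field contradicts the titles, and the titles were followed. The annotation version named in the methods differs in form from the gene identifiers. Current names came from GENCODE v44 (131 of 147 members matched) and RefSeq (146 matched).

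Counts were analysed with edgeR 4.0.16 in R 4.3.3: TMM scaling, the filterByExpr filter, a robust fit of the quasi-likelihood model, and p-values adjusted by Benjamini-Hochberg over all genes tested. A standard error is the fold change on the log2 scale over the square root of F. Treatment and untreated comparisons used their own 6 libraries, interactions and stage differences 12. CPM values carry TMM factors over 24 libraries. DESeq2 1.42.0, other filters, scalings, strands, thresholds and left-out libraries were alternatives. Steps were tested on simulated counts. Intervals and floors cover counting error only.

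Named genes were, among called members with at least 0.5 CPM in the higher group and no overlap, the 8 largest changes per direction in treatment and 5 in untreated comparisons, the 6 smallest adjusted p per interaction and 4 per direction per stage difference, the 10 highest per kilobase and the listed genes. The members and lists were chosen with earlier results of these data known.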

Additional observations from a re-analysis of the deposited data

Results flagged for a closer look

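Results are listed here because 2 groups responded differently under the same treatment, by a test of the difference itself (edgeR, quasi-likelihood, adjusted p by Benjamini-Hochberg). Groups held 3 libraries, so no test for a single outlying library was made, and no explanation was weighed.

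Between genotypes in AID-DIvA cells, the response of KO minus that of WT cells was 0.65 for LINC00511 (adjusted p = 0.00967), -0.38 for LINC00452 (adjusted p = 0.0275) and 0.70 for LINC00601 (adjusted p = 0.0326) on the log2 scale. In U2OS cells it was 1.003 for LINC00511 (adjusted p = 0.000206), 0.71 for LINC00973 (adjusted p = 0.000767), -1.03 for LINC00452 (adjusted p = 0.00765), 0.91 for LINC00920 (adjusted p = 0.0196), -0.49 for LINC00857 (adjusted p = 0.0255) and 1.87 for LINC00461. LINC00461 was chosen through untreated U2OS WT cells, which enter this difference, so its value is a description. Its call (adjusted p = 0.0451) was also lost without any 1 of several libraries.

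Between stages, the response after recovery minus that before it, in WT cells, was 3.33 for LINC00452, 1.75 for LINC00973, 1.55 for LINC00896 and 0.71 for LINC00963. It was -1.72 for LINC00086, -1.99 for LINC00925, -1.496 for LINC00087 and -1.10 for LINC00632. In KO cells it was 3.98 for LINC00452, 1.76 for LINC00973, 0.81 for LINC00963 and 1.40 for LINC00842. The lower ones in KO cells were LINC00925 (-1.73), LINC00086 (-1.80), LINC00883 (-0.86) and LINC00936 (-1.67). Stage and cell line coincide in all of these and cannot be told apart.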

How the results depend on the processing

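Of 162 results on single members, 124 kept their call under every alternative run, and 2093 of 2231 pairs of result and alternative did. Of 273 alternative values of counts of members, 230 lay within 1.5 times the reported count. LINC00565 reversed when counts on the annotated strand were used, to 0.23 in U2OS KO and 0.70 in U2OS WT cells, and LINC00896 lost its stage difference in WT cells (1.08, adjusted p = 0.126). Without the fold threshold, members higher and lower came to 40 and 29 in AID-DIvA KO, 43 and 30 in AID-DIvA WT, 41 and 54 in U2OS KO and 32 and 45 in U2OS WT cells, and to 16 and 40 in untreated AID-DIvA and 4 and 27 in untreated U2OS KO cells. With a minimum of 1000 summed counts, which leaves fewer members, 10 were higher in AID-DIvA KO, 6 in AID-DIvA WT, 13 in U2OS KO and 12 in U2OS WT cells, and 3 and 6 were lower in untreated AID-DIvA and U2OS KO cells. Leaving out the 11 members that reach the minimum only with their highest group, an alternative chosen after seeing the data, 7 were higher in AID-DIvA WT cells and no other count moved by over 1.5 times. With at least 10 counts in every library, which drops members absent from a group, 9 were higher in AID-DIvA KO and 13 in U2OS KO cells. For untreated AID-DIvA KO cells 2 were higher with all 12 libraries of the line and with no filter on low counts. DESeq2 called 5 interactions in AID-DIvA and 11 in U2OS cells; the cause was not tested. LINC00319 in AID-DIvA KO cells was called under DESeq2 (1.01), its size factors (1.01), no filter and the replicate block. Without replicate 1 of the untreated U2OS WT cells LINC00634 (-0.62) and LINC00847 (-0.97) lost their calls in U2OS WT cells and no other of these results did. With no filter on low counts LINC00029 and LINC00319 were not called in untreated U2OS KO cells (adjusted p = 0.0549 and 0.0843). LINC00537 in U2OS KO cells (-0.95) and LINC00662 in U2OS WT cells (-0.98) fell short of the fold threshold on the annotated strand.

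Leaving out each library in turn gave the following lowest and highest counts. For AID-DIvA KO cells these were 17 and 21 higher and 1 and 1 lower, for AID-DIvA WT 11 and 13 higher and 3 and 4 lower, for U2OS KO 21 and 24 higher and 16 and 19 lower, and for U2OS WT 19 and 22 higher and 12 and 15 lower. In untreated KO against WT cells they were 1 and 2 higher and 7 and 10 lower in AID-DIvA, and 0 and 1 higher and 7 and 12 lower in U2OS cells. Interactions ranged from 1 to 5 in AID-DIvA and from 3 to 13 in U2OS cells, and stage differences from 61 to 80 in WT and from 67 to 77 in KO cells.

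Replicate numbers are shared between groups. Deviations of libraries with the same number correlated between -0.43 and 0.31, and those with other numbers between -0.36 and 0.49. Only for treatment in U2OS KO cells did all same-number values (0.04 to 0.12) lie above the others (-0.11 to 0.03). The numbers were not taken to pair libraries. With the replicate number as a block, 1 interaction was called in AID-DIvA cells, and 7 members were lower in untreated U2OS KO cells and 65 differed between stages in WT cells. Members under about 1 CPM rest on few counts, and small differences in them were not detectable at this depth.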
